A study of Mus musculus with 6 samples.

Results

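The genes of the constitutive proteasome were followed in RNA of blood monocytes from thrombocytopenic and control mice. The members were all genes of the count tables whose symbol is Psm, a letter from a to g and a number, without Psmb8, Psmb9 and Psmb10, the catalytic subunits of the immunoproteasome. This gave 45 of 56832 genes: 16 of the core particle, 17 of the regulatory particle and 12 activators, inhibitors and assembly factors. Thrombocytopenic mice (group DTR, 3 libraries) carried PF4cre-iDTR: the Pf4 promoter, active in megakaryocytes, drives Cre recombinase that switches on an inducible diphtheria toxin receptor. The control group (WT, 3 libraries) was wild type. Diphtheria toxin is given as the treatment of both groups, so genotype and platelet state cannot be told apart. Neither the age, sex or strain of the mice nor the dose of toxin is stated, and no label ties a library to an animal. The p-values therefore reflect spread among these 6 libraries alone, and that spread may be technical.

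The proteasome is the protease of the cytosol and nucleus that degrades proteins tagged with ubiquitin. Its core is a barrel of stacked alpha and beta rings with the active sites on the inside. The regulatory particle caps the barrel: ATPases of its base unfold the substrate, and its lid removes the ubiquitin chain. Other caps, the activators, open the core without ATP. In cells stimulated by interferon, 3 immunoproteasome subunits take the place of the constitutive catalytic subunits and alter which peptides are cut for presentation on MHC class I, a function of monocytes and other antigen-presenting cells.

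Constitutive proteasome RNA differed little between monocytes of the 2 groups. The members summed to 6852, 6655 and 6674 CPM in DTR libraries, against 6434, 6460 and 6521 CPM in WT libraries, where CPM are counts scaled to library size with edgeR's TMM factors. Every DTR library lay above every WT library. Of the 45 members, 44 passed the filter on low counts, and the exception was Psmb11. With an adjusted p under 0.05 in the quasi-likelihood test of edgeR, 13 of the 44 tested members were higher in DTR monocytes and 1, Psmb6, was lower, together 31.8%. Over all 12488 genes tested 45.1% were called, 22.4% higher and 22.7% lower. Of the members 29.5% were called higher and 2.27% lower. Over the 7988 tested genes within the members' range of mean CPM (Psma8 left out), 52.7% were called, 29% higher and 23.7% lower. The members' share called higher was thus near that background, and their share called lower was below both backgrounds. No test of either share was made. The counts by structural group that follow have the same backgrounds and were not tested either. The median standard error of the log2 fold change was 0.031 for tested members and 0.046 for the 7988 genes. The shares therefore do not rest on equal precision. Of the 13 higher members the largest difference was 13.2%, in Psme2. The median log2 fold change of the tested members was 0.044, against -0.00077 over all genes tested, and the median of its absolute value was 0.063, against 0.155 over all genes. The 3 DTR libraries lay wholly above the 3 WT libraries for 17 members and wholly below them for 4, against 25.3% and 26.0% of all genes tested (51.3% without overlap in either direction). Of the members wholly above, Psmb3, Psmc4, Psmd13 and Psme4 did not pass the test. Of those wholly below, Psma5, Psma8 and Psmf1 did not. Members took 0.665% to 0.681% of all counts in DTR libraries and 0.645% to 0.653% in WT libraries. In bulk RNA, fewer cells that carry a transcript and less of it per cell cannot be told apart.

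**Figure D1:**
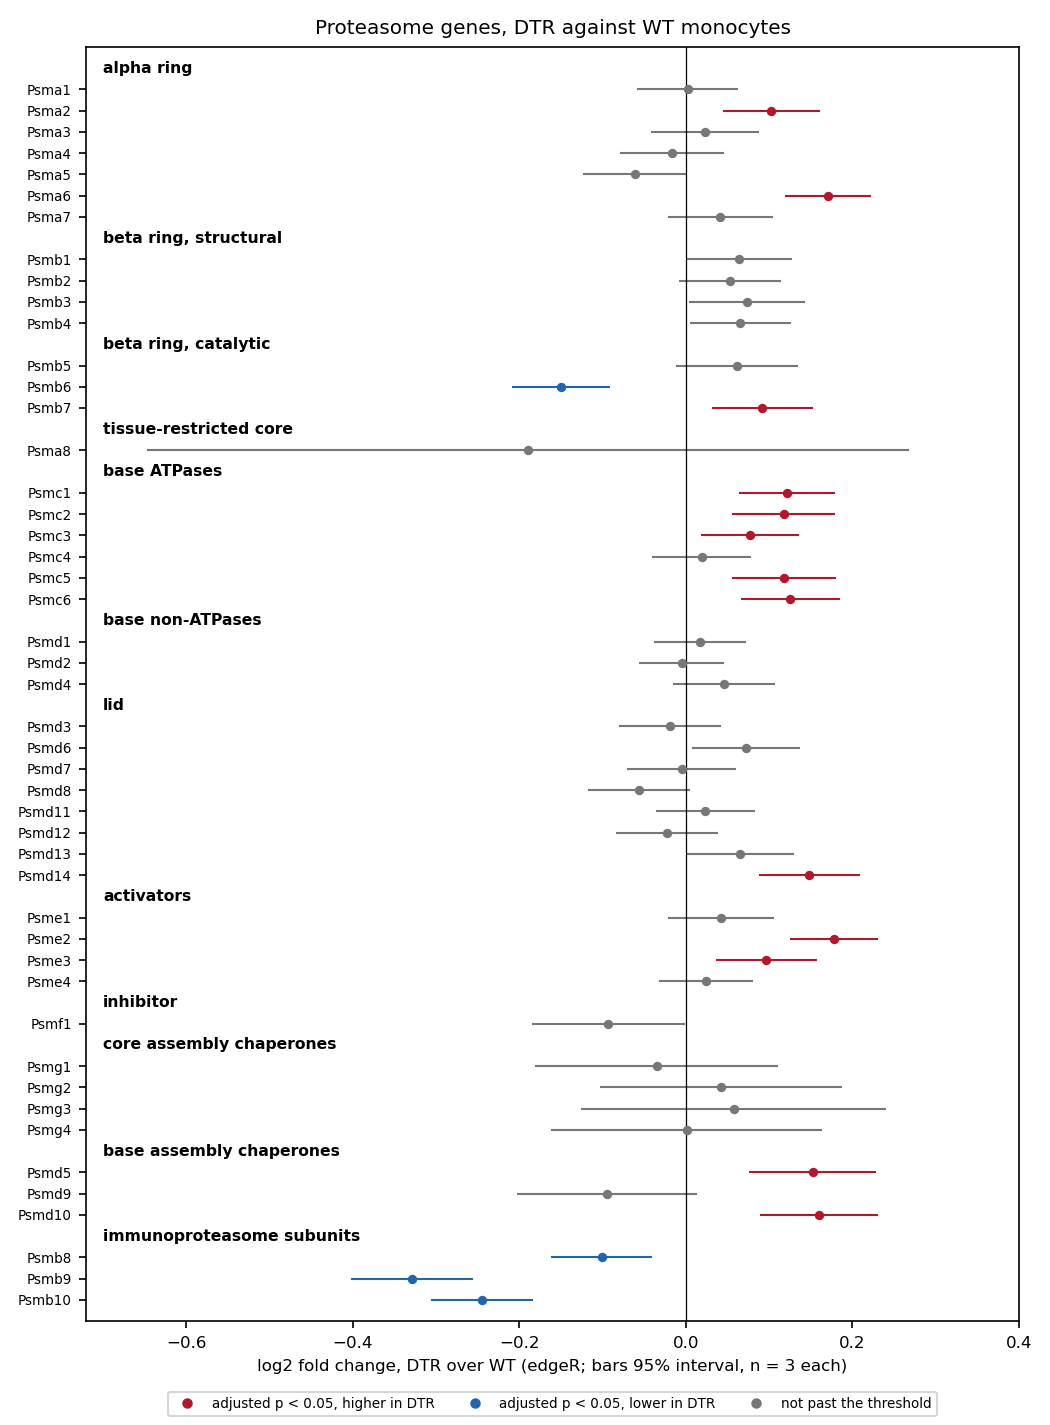
log2 fold change of DTR over WT for the 44 tested members and 3 immunoproteasome subunits, grouped by place in the complex; points are edgeR estimates, bars their 95% intervals (n = 3 libraries each), and colour marks the call. All tested members but Psma8 lie between -0.15 and 0.18, and the immunoproteasome subunits lie at -0.10, -0.33 and -0.24.

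The files summed to 29883019 to 37552029 counts in DTR libraries and 24842319 to 35955383 in WT libraries. Of 14 monocyte markers, all were detected, 8 were higher and 4 lower in DTR, with a summed level of 21376 to 21505 CPM in DTR and 18590 to 18986 CPM in WT libraries; Lyz2 stood at 13571 to 13792 CPM in DTR and 11759 to 12267 CPM in WT libraries. Markers of other cells also differed between the groups. Of 10 macrophage markers 9 were lower and 1 higher in DTR, with a summed level of 5009 to 5169 CPM in DTR and 7460 to 7540 CPM in WT libraries. Gpnmb made up most of the macrophage sum, with means of 3174 CPM in DTR and 4510 CPM in WT. All 8 markers of dividing cells were lower, at a sum of 364 to 383 CPM in DTR and 528 to 533 CPM in WT libraries. Of 8 dendritic cell markers 6 were tested and 5 were lower, at a sum of 227 to 234 CPM in DTR and 304 to 321 CPM in WT libraries. Most of this sum was Bst2, with means of 212 CPM in DTR and 280 CPM in WT. Neutrophil markers summed to 353 to 364 CPM in DTR and 244 to 262 CPM in WT libraries, nearly all of it Mmp8 and Mmp9. Of 7 tested, these 2 were higher in DTR. The other 5 had negative log2 fold changes, and 1 of them was called lower. The defining marker Ly6g had 0 CPM in all DTR libraries and at most 0.035 CPM in WT libraries. Platelet markers summed to 1221 to 1293 CPM in DTR and 1007 to 1053 CPM in WT libraries, nearly all of it Pf4 and Ppbp. The other 3 platelet genes tested, Itga2b, Gp9 and Nrgn, were lower in DTR. B cell markers summed to 13.4 to 15.2 CPM in DTR and 11.05 to 13.1 CPM in WT libraries, mostly Ighm, and of 2 tested 1 was higher. T and NK cell markers summed to 0.321 to 0.503 CPM in DTR and 0.843 to 1.14 CPM in WT libraries, with 5 of 10 markers, among them Cd3e, Cd3d and Cd3g, at 0 in every library and the 1 tested lower. Erythroid markers summed to 0 to 0.054 CPM in DTR and 1.86 to 2.41 CPM in WT libraries, and the 1 tested was lower. Basophil and mast cell markers summed to 0.321 to 0.57 CPM in DTR and 6.59 to 8.30 CPM in WT libraries, and the 4 tested were lower. The part of any of these cells in the proteasome values was not tested.

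Promoters of 4 of the 5 higher members with the largest differences, and of the catalytic pair Psmb6 and Psmb5, are shown to set the sequences beside the calls: the first 4 are of genes higher in DTR, Psmb6 was lower and Psmb5 did not pass the test. The other of the 5, Psmd5, is not shown because GENCODE M21 annotates a start upstream of its whole RefSeq window, in which none of the motifs named here was found. Each line gives 170 bases that end just before the first start site annotated in RefSeq or GENCODE M21, on the gene's strand and in build GRCm38.p6, from RefSeq. Capitals mark matches to the antioxidant response element core TGACNNNGC, the CCAAT box or the interferon-stimulated response element core (GAAA, any 2 bases, then GAAA), searched on both strands, so that CCAAT also appears as ATTGG.
Psma6: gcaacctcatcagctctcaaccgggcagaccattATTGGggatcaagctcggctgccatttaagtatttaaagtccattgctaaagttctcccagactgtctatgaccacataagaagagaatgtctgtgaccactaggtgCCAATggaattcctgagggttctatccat
Psmd14: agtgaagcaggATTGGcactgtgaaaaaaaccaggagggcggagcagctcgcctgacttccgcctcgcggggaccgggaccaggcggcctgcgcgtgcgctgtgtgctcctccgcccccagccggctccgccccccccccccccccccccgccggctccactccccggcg
Psmd10: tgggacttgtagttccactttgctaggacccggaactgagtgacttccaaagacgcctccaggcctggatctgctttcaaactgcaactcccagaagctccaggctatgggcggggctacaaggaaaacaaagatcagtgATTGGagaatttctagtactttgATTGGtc
Psme2: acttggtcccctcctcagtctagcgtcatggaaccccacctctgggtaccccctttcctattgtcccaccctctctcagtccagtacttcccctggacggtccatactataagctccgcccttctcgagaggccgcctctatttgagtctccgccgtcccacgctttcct
Psmb6: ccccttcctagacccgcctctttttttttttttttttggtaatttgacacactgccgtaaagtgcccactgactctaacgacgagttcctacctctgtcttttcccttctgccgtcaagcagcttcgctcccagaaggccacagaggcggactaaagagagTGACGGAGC
Psmb5: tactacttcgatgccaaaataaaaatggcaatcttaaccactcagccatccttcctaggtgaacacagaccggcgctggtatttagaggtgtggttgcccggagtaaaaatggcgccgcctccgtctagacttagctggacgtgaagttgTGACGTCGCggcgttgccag
These stretches lie at chr12:55384052-55384221, plus strand (Psma6), chr2:61711524-61711693, plus strand (Psmd14), chrX:140956729-140956898, minus strand (Psmd10), chr14:55591114-55591283, minus strand (Psme2), chr11:70525187-70525356, plus strand (Psmb6) and chr14:54618023-54618192, minus strand (Psmb5). Psma6 and Psme2 have 2 RefSeq starts each, and the upstream one is shown.

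In windows from 250 bases before to 50 after the start, available for 37 of the 45 members (not Psma8, Psmb1, Psmb2, Psmb7, Psmc3, Psmd3, Psmd7 and Psmg2), a CCAAT box was found in 7 of the 11 higher members with a promoter (Psma2, Psma6, Psmc1, Psmc2, Psmd10, Psmd14 and Psme3). It was found in 5 of the 24 members with a promoter that did not pass the test (Psma1, Psma3, Psma7, Psmb3 and Psmd4), in the untested Psmb11 and not in Psmb6. Together the CCAAT box was found in 13 of 37 members (35.1%), against 41.1% of all genes of the table (37.4% of all promoters). The split by call was not tested. The antioxidant response element core, bound by the Nfe2l1 and Nfe2l2 factors, was found in 6 of 37 members (16.2%) and in 14.0% of all genes (12.4% of all promoters). The Psmb6 match lies immediately before the start, and Psmb5, Psmc6, Psmd9, Psmd12 and Psme4 hold the others. The interferon element core was found in 5 of 37 members, Psmb3, Psmd4, Psmd9, Psme1 and Psmg4, against 3.99% of all genes (3.44% of all promoters), and in none of the 11 higher members. No matches of different motifs overlapped in these members. A match describes letters of the window and not a bound site.

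Core particle genes showed 3 higher members, Psma2, Psma6 and Psmb7, and 1 lower member, Psmb6, among 15 tested, with a median log2 fold change of 0.053. In the alpha ring, which forms the gate of the barrel, 2 of 7 members were higher. Psma6, an alpha subunit, had 507, 492 and 485 CPM in DTR libraries, against 441, 434 and 445 CPM in WT libraries. All DTR libraries lay above all WT libraries, and the log2 fold change was 0.17 (SE 0.026; edgeR adjusted p = 1.65e-07). Psma2, another alpha subunit, had 208, 199 and 201 CPM in DTR libraries, against 186, 193 and 188 CPM in WT libraries. These groups were also apart, by a log2 fold change of 0.10 (SE 0.029; adjusted p = 0.00268). The other 5 alpha subunits did not pass the test. Their log2 fold changes ran from -0.061 in Psma5 to 0.042 in Psma7. Psma5 lay lower in every DTR library, at 118 ± 1.78 CPM in DTR and 123 ± 2.88 CPM in WT (SD, n = 3 each), but with an adjusted p of 0.107 by edgeR.

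The beta ring holds the active sites. Its 4 structural subunits Psmb1, Psmb2, Psmb3 and Psmb4 were not past the threshold, and their log2 fold changes were close together at 0.053 to 0.074, with intervals between -0.0085 and 0.143. The 3 catalytic subunits differed in direction. Psmb6, which carries the caspase-like activity, had 238, 225 and 232 CPM in DTR libraries, against 247, 267 and 256 CPM in WT libraries. It fell in DTR by 0.15 on the log2 scale (SE 0.029; edgeR adjusted p = 2.5e-05), or to 231 ± 6.29 CPM in DTR, against 257 ± 9.91 CPM in WT (SD, n = 3 each). Psmb7, with the trypsin-like activity, had 150, 150 and 146 CPM in DTR libraries, against 138, 139 and 143 CPM in WT libraries. Its groups did not overlap, and it rose by 0.092 on the log2 scale (SE 0.030; adjusted p = 0.00984). Both upper quartile scaling and leaving out WT replicate 1 ended that call (highest adjusted p = 0.0605). Psmb5, with the chymotrypsin-like activity, had 78.3, 73.1 and 76.4 CPM in DTR libraries, against 70.7, 73.7 and 73.8 CPM in WT libraries. Its groups overlapped, and the log2 fold change of 0.062 had an interval of -0.011 to 0.135 (adjusted p = 0.169). Within each library the count ratio of Psmb6 to Psmb7 was 1.58, 1.496 and 1.58 in DTR and 1.79, 1.92 and 1.79 in WT. This ratio was chosen after its values were seen and carries no test. Psmb6 has 2 near copies in the files, Psmb6-ps and Psmb6-ps2, which held 0 to 4 counts per library.

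Of the tissue-restricted core genes, Psma8, the alpha subunit of spermatogenesis, had 46, 31 and 38 counts in DTR libraries, against 32, 46 and 36 in WT libraries, which scaled to 1.232, 1.039 and 1.062 CPM in DTR libraries and 1.285, 1.277 and 1.254 CPM in WT libraries. On the CPM scale its DTR libraries lay below the WT libraries, which makes it 1 of the 4 members wholly below. The interval of the log2 fold change, -0.65 to 0.27, spans 0 (edgeR adjusted p = 0.536), and a difference of the size seen in other members was not detectable at this depth. The count ratio of Psma8 to its close relative Psma7 averaged 0.00837 in DTR and 0.00988 in WT, and reads shared between the genes cannot be told apart. Psmb11, the beta subunit of thymic epithelium, had 0, 0 and 1 count in DTR libraries, against 0, 1 and 1 in WT libraries, and was not tested.

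**Figure D2:**
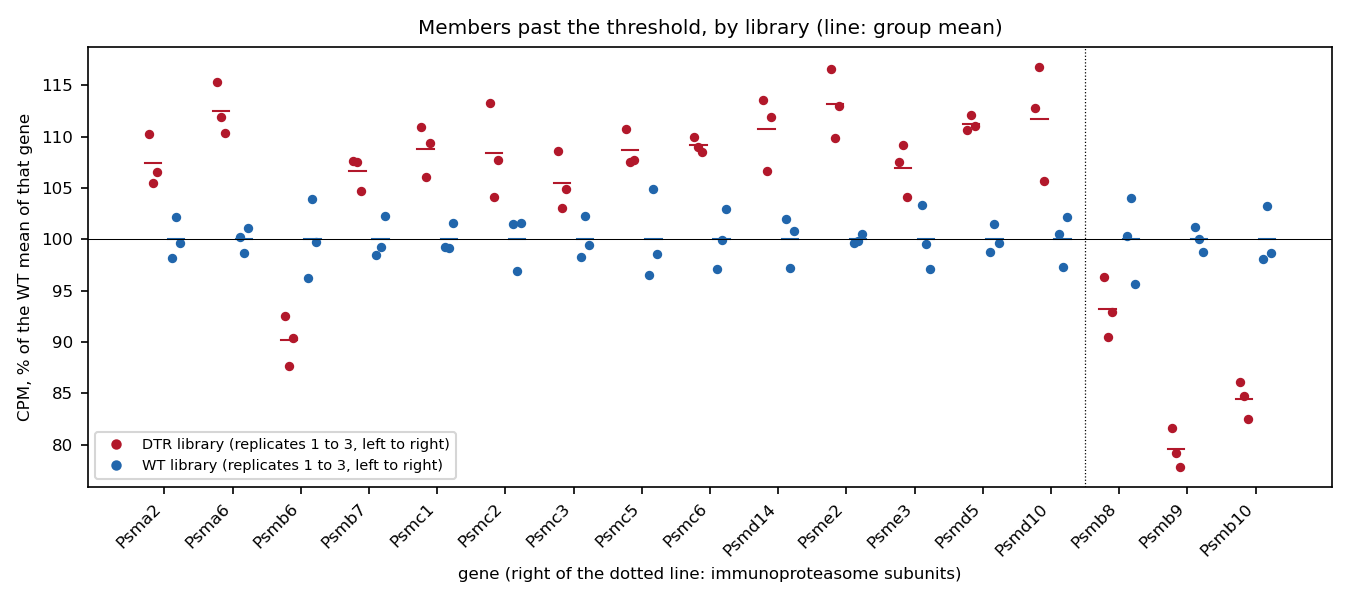
CPM of each library as a percentage of that gene's WT mean, for the 14 members past the threshold and, right of the dotted line, the 3 immunoproteasome subunits; points are libraries (DTR left of WT) and short lines group means. Of the 14 members the DTR libraries lie above the WT libraries in all but Psmb6, where they lie below, and Psmb8 is the gene whose groups overlap.

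In the regulatory particle 6 of 17 members were higher (35.3%) and none lower, with a median log2 fold change of 0.046. Over all genes tested 22.4% were higher and 22.7% lower, and within the members' range of mean CPM 29% and 23.7%. Of the 6 higher members, 5 were ATPases of the base, which form the ring that unfolds substrates and threads them into the core. Psmc6 had 178, 176 and 175 CPM in DTR libraries, against 157, 161 and 166 CPM in WT libraries (log2 fold change 0.13, SE 0.030; edgeR adjusted p = 0.000354). Psmc1 had 212, 203 and 209 CPM in DTR libraries, against 190, 189 and 194 CPM in WT libraries (0.12, SE 0.029; adjusted p = 0.000357). Psmc5 had 159, 155 and 155 CPM in DTR libraries, against 139, 151 and 142 CPM in WT libraries (0.12, SE 0.031; adjusted p = 0.00141). In these 3 genes every DTR library lay above every WT library. The same held for Psmc2, with 201, 185 and 191 CPM in DTR libraries, against 180, 172 and 181 CPM in WT libraries (0.12, SE 0.031; adjusted p = 0.00126). Psmc3, at 190 ± 5.05 CPM in DTR and 180 ± 3.67 CPM in WT (SD, n = 3 each), passed narrowly (log2 fold change 0.077; adjusted p = 0.0275) and not under 4 of 15 alternatives, where its adjusted p reached 0.168. Psmc4 did not pass the test, at 139 ± 1.19 CPM in DTR and 137 ± 0.616 CPM in WT. The 6 ATPases together summed to 1086, 1042 and 1057 CPM in DTR libraries, against 979, 995 and 999 CPM in WT libraries, so the sums did not overlap.

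The other subunits of the base stayed close to their WT levels. Psmd2, a scaffold of the base and the most abundant regulatory particle RNA by CPM, had 404, 405 and 410 CPM in DTR libraries, against 408, 405 and 410 CPM in WT libraries. Its log2 fold change was -0.0047, with an interval of -0.056 to 0.046. Psmd1, another scaffold, and Psmd4, a ubiquitin receptor, had log2 fold changes of 0.017 and 0.046 and did not pass the test.

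In the lid 1 of 8 members was higher. Psmd14, the metalloprotease that cuts ubiquitin chains from the substrate and thus the one enzyme of the lid, had 180, 169 and 177 CPM in DTR libraries, against 161, 154 and 160 CPM in WT libraries. Every DTR library lay above every WT library, and the log2 fold change was 0.15 (SE 0.030; edgeR adjusted p = 5.09e-05). The other 7 lid genes are structural, and their log2 fold changes ran from -0.056 in Psmd8 to 0.073 in Psmd6. Psmd8 was called lower under 3 alternatives, with upper quartile scaling, without DTR replicate 2 and without WT replicate 2. Psmd7, the partner of Psmd14 in the lid, had 162.8 ± 7.501 CPM in DTR and 163.3 ± 6.58 CPM in WT (SD, n = 3 each).

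Among activators 2 of 4 were higher. Psme2, which with Psme1 forms the interferon-inducible activator ring, had 439, 414 and 426 CPM in DTR libraries, against 375, 376 and 379 CPM in WT libraries. Every DTR library was higher, by a log2 fold change of 0.18 (SE 0.026; edgeR adjusted p = 9.91e-08). Psme1 had 189, 170 and 179 CPM in DTR libraries, against 169, 178 and 175 CPM in WT libraries. These groups overlapped (log2 fold change 0.042, interval -0.021 to 0.106; adjusted p = 0.291). The count ratio of Psme2 to Psme1 in a library, chosen after its values were seen, was 2.33, 2.43 and 2.38 in DTR and 2.22, 2.12 and 2.16 in WT and carries no test. Psme2 has a near copy in the files, Psme2b, which had 6.41 ± 0.494 CPM in DTR and 6.64 ± 0.451 CPM in WT (SD, n = 3 each). With the counts of both summed, an alternative chosen after the data were seen, the log2 fold change was 0.17. Psme3, the nuclear activator, had 164, 167 and 159 CPM in DTR libraries, against 158, 152 and 149 CPM in WT libraries. It rose by 0.097 on the log2 scale (SE 0.030; adjusted p = 0.00727), and without WT replicate 3 its adjusted p was 0.0886. Psme4, an activator linked to histone turnover, stood at 197 ± 1.75 CPM in DTR and 194 ± 2.43 CPM in WT and did not pass. Psmf1, named as an inhibitor of the core, was at 37.4, 37.1 and 34.97 CPM in DTR libraries, against 38.5, 38.8 and 39.4 CPM in WT libraries. Its DTR libraries lay below the WT libraries, but the adjusted p was 0.0945 (log2 fold change -0.093).

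Assembly factors act on either the base or the core. Of the 3 chaperones of the base, which hold its ATPases until it is complete, 2 were higher. Psmd5 had 63.6, 64.5 and 63.9 CPM in DTR libraries, against 56.8, 58.4 and 57.4 CPM in WT libraries (log2 fold change 0.15, SE 0.038; edgeR adjusted p = 0.000712). Psmd10, also known as gankyrin, had 97.3, 101 and 91.2 CPM in DTR libraries, against 86.8, 84.0 and 88.2 CPM in WT libraries (0.16, SE 0.036; adjusted p = 0.000177). In both genes the DTR libraries lay above the WT libraries. Psmd9 did not pass, at 24.9 ± 1.12 CPM in DTR and 26.5 ± 1.16 CPM in WT (SD, n = 3 each; log2 fold change -0.095). None of the 4 chaperones of the core passed the test by edgeR. Psmg1, Psmg2, Psmg3 and Psmg4 had means of 7.59 to 13.6 CPM in DTR and 7.28 to 13.3 CPM in WT, with log2 fold changes of -0.035 to 0.057 and standard errors of 0.072 to 0.091. At these lower levels the intervals reached -0.18 and 0.24, so that differences of the size seen in other members could have been missed.

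The structural groups differed in level. Levels per kilobase used the principal transcript (GENCODE M21), and the annotation behind the counts is not given in the sources used here. Where several transcripts of a gene shared the best principal rank, the longest was used, and levels per kb depend on that choice. Regulatory particle members spanned 59.3 to 137 CPM per kb in DTR and 58.4 to 138 CPM per kb in WT. The alpha ring spanned 45.9 to 475 CPM per kb in DTR and 45.2 to 422 CPM per kb in WT. Its low end was Psma3, taken at 2846 bases, and its high end Psma6, taken at 1042 bases. Psma6 had the highest level of all members, and the next alpha subunit, Psma1, had 146 ± 4.07 CPM per kb in DTR and 146 ± 4.65 CPM per kb in WT (SD, n = 3 each). Psme2 followed at 443 ± 13.1 CPM per kb in DTR and 392 ± 1.80 CPM per kb in WT. Psmb6 came next at 290 ± 7.89 CPM per kb in DTR and 322 ± 12.4 CPM per kb in WT. The structural and catalytic beta subunits other than Psmb6 spanned 83.5 to 155 CPM per kb in DTR and 79.8 to 149 CPM per kb in WT. Chaperones of the core lay far lower, at a median of 12.02 CPM per kb in DTR and 12.03 CPM per kb in WT. Several members overlap another protein-coding gene in GENCODE M21, among the called ones Psma2 with AW209491, Psmb7 with Nek6, Psmc3 with Slc39a13 and Psmd5 with Cutal, and whether strand was used in counting is not given.

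**Figure D3:**
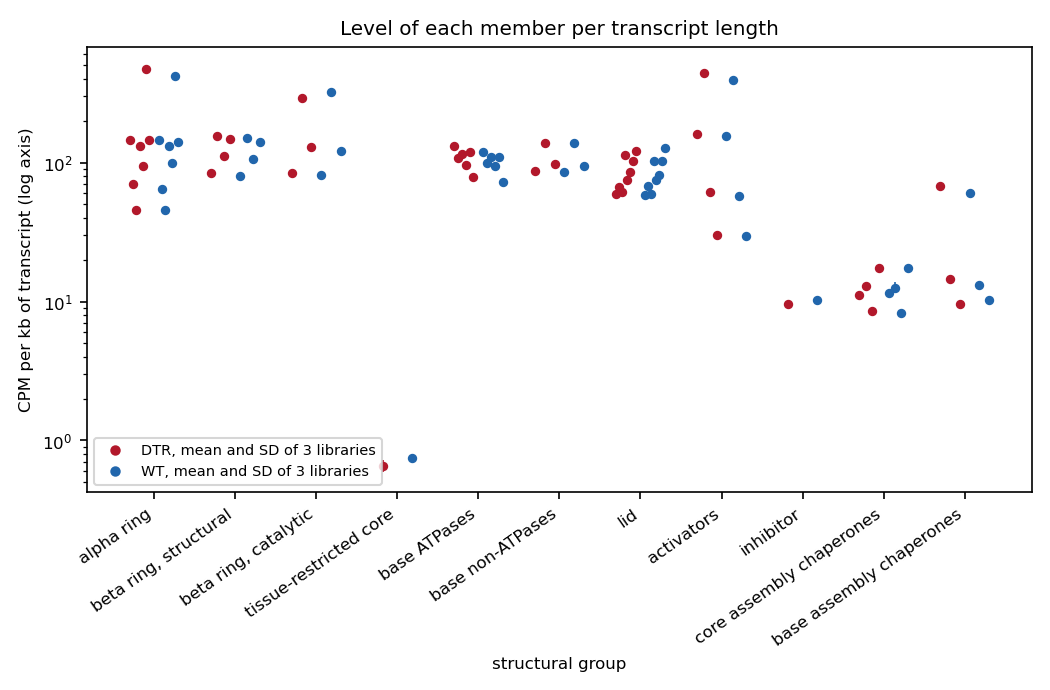
Level of each member in CPM per kb of principal transcript on a log axis, by structural group, as mean and SD of 3 libraries (DTR left of WT; Psmb11 left out). Psma6, Psme2 and Psmb6 stand highest at 475, 443 and 290 CPM per kb in DTR and 422, 392 and 322 CPM per kb in WT, and core assembly chaperones have medians of 12.02 in DTR and 12.03 in WT.

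The immunoproteasome subunits that replace the catalytic subunits were all lower in DTR. Psmb8, which replaces Psmb5, had 216, 203 and 208 CPM in DTR libraries, against 224, 233 and 214 CPM in WT libraries. These groups overlapped slightly, with a log2 fold change of -0.10 (SE 0.030; edgeR adjusted p = 0.00489), which was not past the threshold without WT replicate 2 (adjusted p = 0.0621). Psmb9, which replaces Psmb6 and overlaps Tap1, had 64.3, 62.4 and 61.3 CPM in DTR libraries, against 79.7, 78.8 and 77.7 CPM in WT libraries (-0.33, SE 0.036; adjusted p = 4.19e-11). Psmb10, which replaces Psmb7, had 139, 137 and 133 CPM in DTR libraries, against 158, 167 and 159 CPM in WT libraries (-0.24, SE 0.031; adjusted p = 1.37e-09). For Psmb9 and Psmb10 every DTR library lay below every WT library.

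Ratios of the exchanged subunits within a library need no scaling between libraries. The count ratio of Psmb8 to Psmb5 was 2.75, 2.77 and 2.72 in DTR and 3.18, 3.16 and 2.90 in WT. The ratio of Psmb9 to Psmb6 was 0.271, 0.277 and 0.264 in DTR and 0.323, 0.295 and 0.304 in WT. The ratio of Psmb10 to Psmb7 was 0.924, 0.909 and 0.909 in DTR and 1.15, 1.20 and 1.11 in WT. On the log2 scale DTR minus WT was -0.16, -0.18 and -0.34 in these 3 pairs. All 3 DTR libraries lay below all 3 WT libraries in each pair. The exact permutation test gave 0.1 in each (two-sided, also 0.1 after Benjamini-Hochberg adjustment over the 3), the smallest p that 3 against 3 libraries allow, so the design cannot reach the threshold. For Psmb9 to Psmb6 the difference of -0.18 compares with -0.33 for Psmb9 alone, and for Psmb10 to Psmb7 that of -0.34 with -0.24 for Psmb10 alone.

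**Figure D4:**
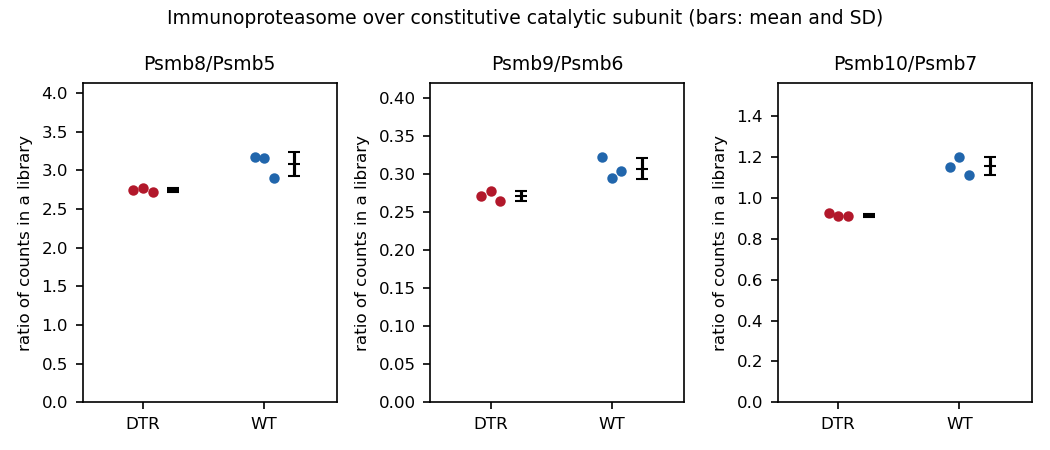
Ratio of counts of each immunoproteasome subunit to the constitutive subunit it replaces, per library (points) with group mean and SD (n = 3), DTR left of WT and axes from 0. DTR libraries sit at 2.72 to 2.77, 0.264 to 0.277 and 0.909 to 0.924, below WT libraries at 2.90 to 3.18, 0.295 to 0.323 and 1.11 to 1.20.

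Around the complex, 37 of 39 other listed genes of the pathway were tested, and 13 were higher and 5 lower (48.6% called). The list includes the 3 immunoproteasome subunits above, and the 5 lower genes were these 3, Zfand2a and Ddi2. The shares of the 37 genes were 35.1% higher and 13.5% lower, against 22.4% and 22.7% of all genes tested (45.1% called). The lower share thus largely repeats the immunoproteasome subunits. No test of these shares was made, and the counts by list that follow have the same background. The median log2 fold change of the 37 genes was 0.043. Of the remaining subunits and assembly genes, Adrm1, a ubiquitin receptor of the base, Sem1, a lid subunit, and Pomp, the maturation factor of the core, had log2 fold changes of 0.068, 0.14 and 0.11 and did not pass the test. Of 15 alternatives Adrm1 passed in 1, Sem1 in 7 and Pomp in 5. Among enzymes and regulators that bind the proteasome 5 of 9 were higher and 1 lower. Zfand5, an activator of the complex, had 433, 430 and 425 CPM in DTR libraries, against 314, 296 and 312 CPM in WT libraries (log2 fold change 0.48, SE 0.027; edgeR adjusted p = 5.63e-22). Its stress-inducible relative Zfand2a had 18.1, 19.4 and 19.96 CPM in DTR libraries, against 27.6, 27.5 and 27.4 CPM in WT libraries (-0.52, SE 0.056; adjusted p = 1.51e-11). The groups were apart in both genes, in opposite directions. Usp14, a deubiquitinase of the regulatory particle, rose by 0.17 on the log2 scale.

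Of the genes that control subunit transcription 2 of 4 tested were higher and 1 lower. Nfe2l1, the factor that raises subunit transcription when proteasome activity is limiting, had 351, 349 and 353 CPM in DTR libraries, against 292, 310 and 302 CPM in WT libraries. All DTR libraries lay above the WT libraries (log2 fold change 0.22, SE 0.027; edgeR adjusted p = 7.52e-10). Ngly1 and Ddi2 act on the Nfe2l1 protein, by removing its glycans and by cutting it; Ngly1 rose by 0.19 and Ddi2 fell by 0.098 on the log2 scale, and the groups of Ddi2 overlapped (edgeR adjusted p = 0.0491). Ddi2 passed in only 5 of 15 alternatives, where its adjusted p ran up to 0.206, and Ngly1 in 14, with an adjusted p of 0.195 without WT replicate 2. Among ubiquitin genes 1 of 5 was higher, Uba6, an activating enzyme, by 0.26 on the log2 scale. The other 4 did not pass. Of the shuttle and segregase genes Rad23b, a carrier of ubiquitin-tagged proteins to the proteasome, was higher by 0.13 on the log2 scale (edgeR adjusted p = 8.74e-05). Of 6 peptidases that trim proteasome products 3 were higher: Blmh by 0.32, Tpp2 by 0.31 and Npepps by 0.25 on the log2 scale. Thop1, Lap3 and Erap1 had log2 fold changes of -0.091, -0.055 and -0.037 and did not pass the test.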

How the data were processed

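PolyA RNA of blood monocytes was sequenced in 6 libraries (stranded TruSeq kit, per the labels' protocols). The submitters' processing notes name fastp 0.23.1, STAR 2.7.9a, Subread 2.0.1, featureCounts and Salmon 1.5.2; for their roles, the genome build, annotation and strand setting, the sources used here give nothing. The authors deposited unnormalized counts by gene symbol, as whole numbers with a different total in each file. Libraries of a group differed by 1.91 to 3.27 chi-square per degree of freedom, so none was a copy.

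Genes passing filterByExpr (minimum count 10, minimum total 15) were tested with edgeR 4.0.16 in R 4.3.3 (TMM, robust quasi-likelihood, two-sided, no covariate). P-values were adjusted by Benjamini-Hochberg over the whole tested table, with a threshold of 0.05. The SE was taken as |log2 fold change| over the root of F; intervals are 95%. The step was tested on simulated data. Alternatives used DESeq2 1.42.0, limma 3.58.1 (voom), other scalings, filters and thresholds, a replicate block and each library left out. Intervals and depth limits cover counting and library spread only.

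The members, lists and motifs were chosen with earlier results of these data known. Values by library are given for the called members with the largest changes in each structural group (up to 4), the catalytic subunits and Psme1 and Psme2, and for named genes of the pathway lists; Psmf1 and the genes given as exceptions were added after their values were seen. Paaf1 was not analysed here. A gene of the pathway lists is not reported here.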

Additional observations from a re-analysis of the deposited data

How the results depend on the processing

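Of the 14 called members, 11 were called in every alternative test, filter, scaling, block and left-out library; the others were Psmb7, Psmc3 and Psme3. Members called lower numbered 1 in the main setting and 4 with upper quartile scaling, which added Psmf1, Psma5 and Psmd8; leaving out 1 library gave 1 to 3 (2 without DTR replicate 2, 3 without WT replicate 2). Members called higher numbered 11 to 16 when 1 library was left out. Other pathway genes called lower numbered 3 to 6 when 1 library was left out. The cause of these shifts was not tested. Between DTR and WT libraries of the same replicate number, deviations from the group means correlated at -0.038, -0.089 and -0.013. Libraries of different number were not compared, so these values cannot decide whether the libraries were paired. A replicate block gave 13 members higher and 1 lower. Upper quartile scaling moved the median of all genes to -0.025. Members near 0, none called in any setting, changed sign in some settings. With upper quartile scaling these were Psmd1 (-0.0067), Psmc4 (-0.0050), Psma1 (-0.021), Psmd11 (-0.00038), Psma3 (-0.00082) and Psmg4 (-0.023). With library totals they were Psma1 (-0.0028) and Psmg4 (-0.0046), with the filter of 1 CPM in 3 libraries Psma1 (-0.00068) and Psmg4 (-0.0027), and with the replicate block Psmg4 (-0.0038). Over the fits without 1 library, the values of members that changed sign ran as follows: Psmd1 from -0.0035 to 0.0352, Psma1 from -0.026 to 0.0222, Psmd7 from -0.0429 to 0.021, Psma4 from -0.0443 to 0.010, Psmd11 from -0.00066 to 0.0359, Psmd3 from -0.0443 to 0.0085, Psma3 from -0.017 to 0.0568, Psmg4 from -0.037 to 0.0393, Psmd2 from -0.013 to 0.00015 and Psmg2 from -0.0050 to 0.109. The 3 catalytic ratios kept their sign without any 1 library. At 24842319 to 37552029 counts per library, Psmg1, Psmg2, Psmg3 and Psmg4 had standard errors of 0.072 to 0.091.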
